A study of Mus musculus with 35 samples.

Results

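The cytosolic ribosomal protein genes encode the protein subunits of the ribosome that translates messenger RNA outside mitochondria. They were taken here as the gene names that begin with Rpl, Rps, Rplp or Rpsa and follow the family's numbering in both of the authors' transcript assemblies, which gave 84 genes among 23004 gene keys shared by the 2 RNA tables. Of these, 33 belong to the small and 51 to the large subunit, and 4 divergent copies with the ending l or l1 that were measured (Rpl7l1, Rpl22l1, Rps4l and Rps27l) are among them. RNA of 81 was measured and passed the low-count filter of every comparison, and the other 3 (Rpl3l, Rpl10l and Rpl39l) had at most 2 fragments in any library.

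The study grew neural progenitor cells from mouse embryos with both copies (WT), 1 copy (Het) or no copy (KO) of intact Mettl14. The Mettl14 protein is the RNA-binding partner in the enzyme complex that methylates adenosines of mRNA to N6-methyladenosine (m6A). The Mettl14 allele carries loxP sites around exon 2, and the labels describe both a germline deletion made with EIIa-Cre and a floxed allele combined with nestin-Cre, without saying which gave the cultured lines. RNA was sequenced in 3 WT, 3 Het and 3 KO libraries of a first batch (batch 1) and in 2 WT and 2 KO libraries of another (batch 3). m6A was mapped in WT cells from 2 immunoprecipitates and 2 inputs, and the histone marks H3K27ac and H3K27me3 were mapped in 2 WT lines (532 and 541) and 2 KO lines (530 and 534). Each line is 1 culture, and the RNA tables do not tie libraries to lines. The p-values below therefore measure the spread between these libraries, part of which may be technical.

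Ribosomal protein genes are among the most highly transcribed genes of a dividing cell, and a ribosome holds nearly all of its proteins in equal number. Transcription of these genes starts within a stretch of pyrimidines, so that the mRNA opens with a terminal oligopyrimidine (TOP) tract, through which the mTOR pathway sets their translation. When ribosome assembly is disturbed, a free particle of 5S ribosomal RNA with Rpl5 and Rpl11 binds Mdm2 and stabilises p53.

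The stretch around the start site is shown for 2 pairs of original and divergent copy whose RNA moved most clearly, for 2 members whose start carries a TOP motif in full, and for Rpl38, which had an m6A peak. Each line gives 20 bases before and 10 bases from the annotated start on the gene's strand, 5′ to 3′, from RefSeq promoters of build GRCm38.p6. Capitals mark CCTTTC or CTTTTC on the gene strand within 10 bases of the start, or CCGGAAG, the core bound by ETS factors and GABP. The first start listed by RefSeq is given for Rps27l and Rpl22, which have another one each.
Rps27, chr3:90213639-90213668, minus strand: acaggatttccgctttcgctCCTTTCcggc
Rps27l, chr9:66946066-66946095, plus strand: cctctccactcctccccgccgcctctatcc
Rpl22, chr4:152325706-152325735, plus strand: ccgacttcgccctgggaaaagcaatagctg
Rpl22l1, chr3:28805488-28805517, plus strand: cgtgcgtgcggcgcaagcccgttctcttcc
Rpl12, chr2:32961692-32961721, plus strand: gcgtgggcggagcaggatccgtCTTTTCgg
Rpl27a, chr7:109519175-109519204, plus strand: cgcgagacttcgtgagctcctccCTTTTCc
Rpl38, chr11:114668560-114668589, plus strand: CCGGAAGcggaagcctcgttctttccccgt
RefSeq promoters matched 63 of the 84 genes. Within 10 bases of a start, CTTTTC stood in 3 genes (Rpl12, Rpl27a and Rpl34) and CCTTTC in 6 (Rpl15, Rpl35, Rpl39l, Rplp2, Rps10 and Rps27), with no gene holding both, so that 14.3% held one of them against 1.62% of the 27025 genes in the promoter table. On either strand of the whole promoter of 300 bases, CCGGAAG stood in 26 of the 63 (41.3%, against 9.93%), the YY1 motif AAGATGGCG in 4 (6.35%, against 1.64%) and the SP1 core GGGCGG in 39 (61.9%, against 38.2%). Of the 4 genes in the pairs shown, Rps27 alone held the short motif. A match describes the letters only, and the tests below do not use it.

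Libraries held between 14087371 and 20046524 fragments. Of the neural progenitor markers, 13 of 14 were in the tables and none was at 0 in any group. Their summed level was 7250 to 7840 CPM (fragment counts brought to an equal library size) in WT and 4170 to 4560 CPM in KO libraries of batch 1, 7570 to 8470 CPM in Het, and 7940 to 8540 CPM in WT and 5130 to 5260 CPM in KO libraries of batch 3. The 5 oligodendrocyte lineage markers summed to 587 to 671 CPM in WT and 349 to 382 CPM in KO of batch 1, and the 5 astrocyte markers to 1090 to 1290 and 1500 to 1630 CPM. In batch 3 these were 726 to 794 and 643 to 683 CPM, and 741 to 887 and 1060 to 1190 CPM. The 6 neuron markers summed to 1120 to 1180 CPM in WT and 1000 to 1210 CPM in KO of batch 1, and to 1040 to 1150 and 842 to 1020 CPM in batch 3. Microglial markers summed to at most 2.26 CPM and endothelial markers to at most 1.84 CPM, with Cdh5 at 0 in 4 of the 5 groups. Fibroblast and pericyte markers summed to 2.37 to 2.86 CPM in WT and 11.1 to 12.6 CPM in KO of batch 1, and to 1.83 to 4.05 and 6.8 to 12.6 CPM in batch 3. Choroid plexus markers summed to 4.02 to 6.41 and 0.801 to 1.96 CPM in batch 1, and to 12.1 to 15.5 and 0.347 to 2.22 CPM in batch 3. The part of these marker differences in the results below was not tested, and in bulk RNA fewer cells of a type and less RNA per cell cannot be told apart. RNA of the whole Mettl14 locus, which includes exons outside the deleted part and so does not check the labels, stood at 22.8 to 24.9 CPM in WT and 20.7 to 23.2 CPM in KO libraries of batch 1, and at 36.9 to 39.6 and 23.7 to 31.7 CPM in batch 3.

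In batch 1 the ribosomal protein genes as a whole took up a similar part of the RNA in each genotype. Their summed fragments were 5.00% ± 0.06 of a library in WT, 4.77% ± 0.20 in KO and 4.75% ± 0.14 in Het of batch 1 (SD, n = 3 each). In batch 3 they were 4.195% and 4.0% in the WT libraries and 3.87% and 5.48% in the KO libraries. The KO mean was thus 0.955 times the WT mean in batch 1, where WT libraries ranged from 4.93% to 5.05% and KO libraries from 4.60% to 4.99%, an overlap of the groups. In batch 3 the ratio was 1.14 with both KO libraries and 0.944 without the one numbered 2.

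That library stood apart from the other libraries for these genes. Other gene lists were not set out library by library, so the shift is not shown to be particular to this family. Its median over the 81 genes was 0.41 on the log2 scale above the mean of the WT libraries of its batch, with an interquartile range of 0.25 to 0.58, while the other KO library of batch 3 lay at −0.10. The KO libraries of batch 1 lay at −0.03, −0.13 and −0.10, the Het libraries at −0.05, −0.11 and −0.14, and WT libraries, each against the others of its batch, between −0.08 and 0.08. Counts and called genes of batch 3 are therefore given with and without the second KO library.

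**Figure D1:**
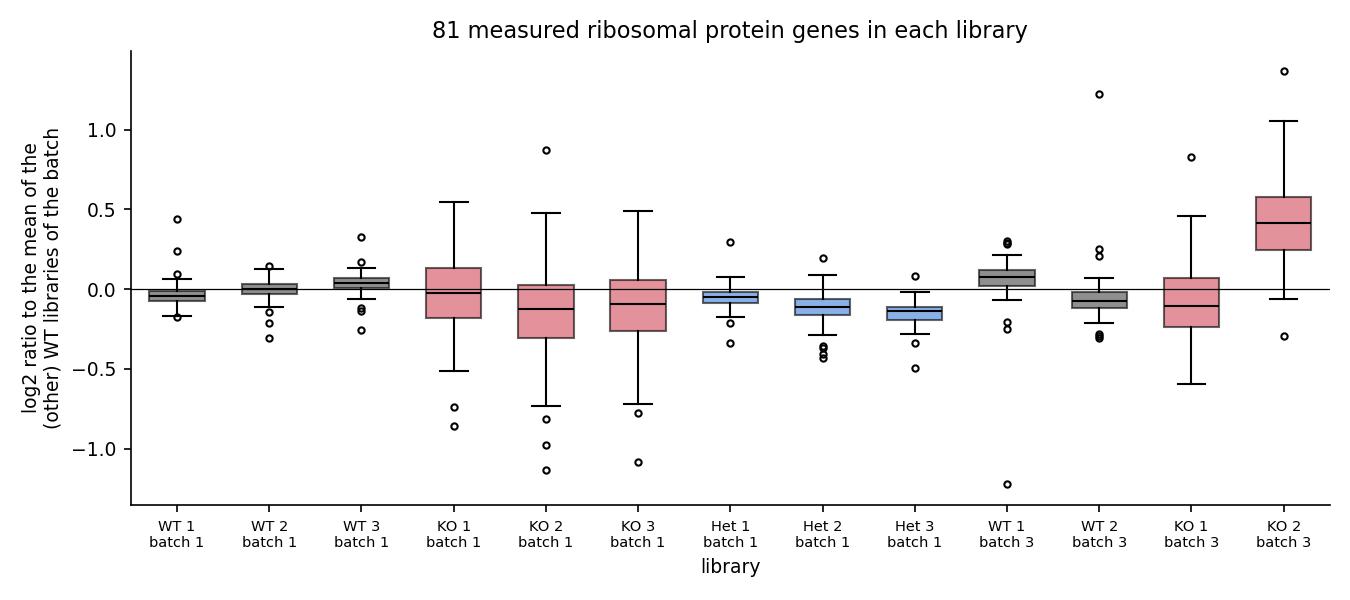
Log2 ratio of each of the 81 measured ribosomal protein genes to the mean of the WT libraries of the same batch (for a WT library, the other WT libraries), as a box per library: the line is the median, the box the interquartile range, the whiskers reach 1.5 times the box, and circles are genes beyond them. The second KO library of batch 3 has a median of 0.41, and the other 12 libraries lie between −0.14 and 0.08.

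KO and WT cells differed in single genes in both directions. Over batches, with batch as a term in the fit, 15 members rose and 11 fell in KO cells at an adjusted p below 0.05 by edgeR's quasi-likelihood test with Benjamini-Hochberg adjustment over all 13514 genes tested. Those are 18.5% and 13.6% of the 81, where 32.8% of all genes tested were higher and 30.8% were lower, so both shares lay below those of all genes, a difference that was not tested. The members' median log2 fold change was 0.02, beside 0.03 over all genes, with an interquartile range of −0.14 to 0.18. The members called higher were Rpl22, Rpl26, Rpl29, Rpl31, Rpl37, Rpl37a, Rpl39, Rps4l, Rps15a, Rps21, Rps23, Rps24, Rps27, Rps28 and Rps29. The members called lower were Rpl3, Rpl4, Rpl7a, Rpl7l1, Rpl22l1, Rpl24, Rps2, Rps18, Rps19, Rps27l and Rpsa.

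Leaving out the second KO library of batch 3 changed the balance. Then 9 members were higher (Rpl22, Rpl26, Rpl37a, Rpl39, Rps15a, Rps21, Rps24, Rps27 and Rps29) and 38 lower, with a median of −0.11, where 33.2% of all 13720 genes tested were higher and 34.3% lower. With fragments scaled to library size alone, in place of the trimmed-mean (TMM) scaling, 19 were higher and 8 lower over batches. All 5 of the largest falls described below, and 4 of the 5 largest rises (all but Rps4l), passed with and without that library, whereas the number of members that fell rested on it.

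**Figure D2:**
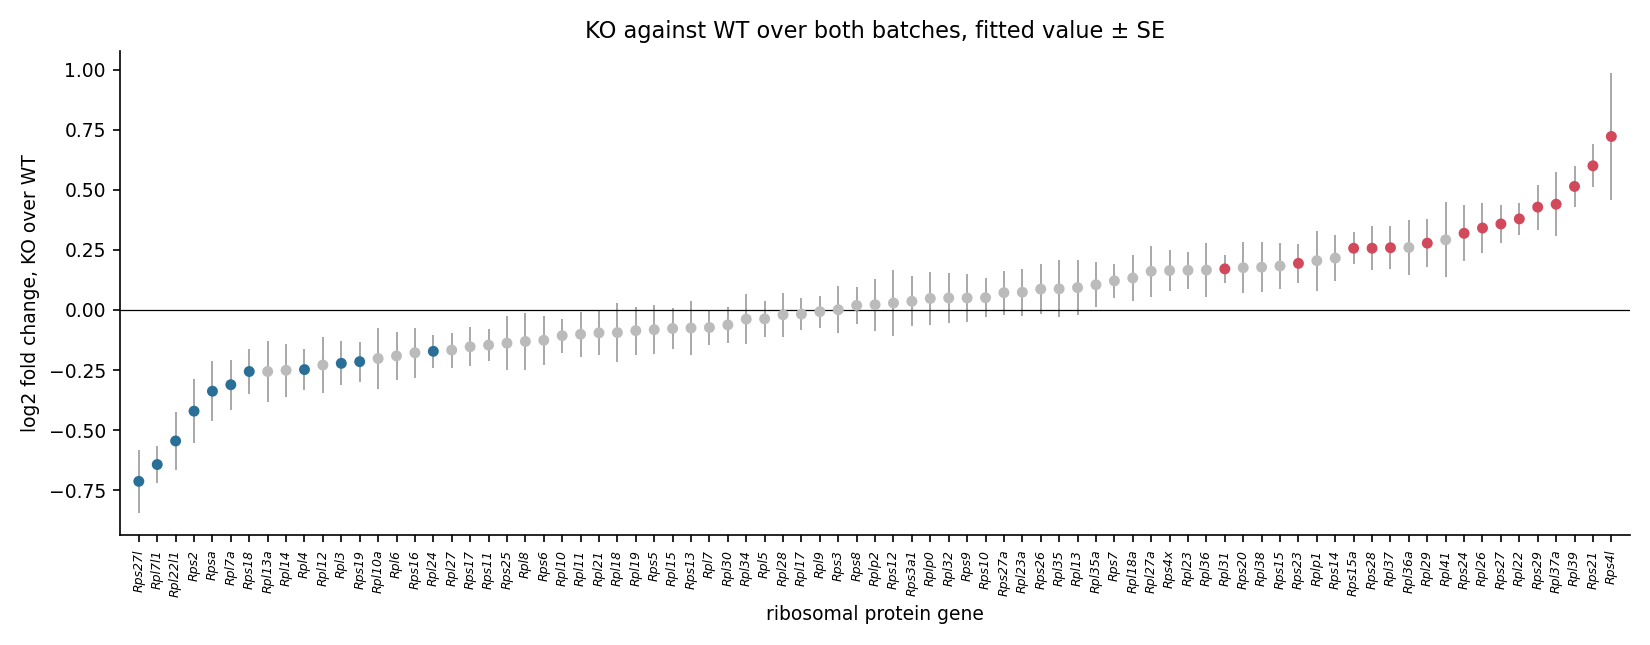
Fitted log2 fold change of KO over WT with its standard error for the 81 measured ribosomal protein genes, over both batches, in order of size; red points were called higher, blue points lower and grey points neither (adjusted p of 0.05, edgeR). The genes run from −0.71 (Rps27l) to 0.72 (Rps4l), and 15 are red and 11 blue.

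The deepest falls were in divergent copies of ribosomal proteins. Rps27l is a near copy of Rps27 in the small subunit and is known as a gene that p53 induces. Its RNA stood at 243, 227 and 226 CPM in the WT libraries of batch 1, at 128, 105 and 109 CPM in KO and at 240, 247 and 229 CPM in Het. In batch 3 it was at 191 and 200 CPM in WT and at 142 and 187 CPM in KO. All KO libraries lay below all WT libraries of their batch, and 2 of the 3 Het libraries lay within the WT range and the other above it. Rps27l fell 0.71 ± 0.13 on the log2 scale over batches (SE; 0.610-fold, adjusted p = 3.81e-04 by edgeR), with −1.06 ± 0.07 in batch 1 (adjusted p = 3.75e-07) and −0.24 ± 0.16 in batch 3 (adjusted p = 0.277). Without the second KO library of batch 3 that last value was −0.45 (adjusted p = 0.00309).

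Rpl7l1, a relative of the large subunit protein Rpl7 that works in ribosome assembly, showed the same order. WT libraries held 153, 162 and 162 CPM in batch 1, KO libraries 95.0, 90.2 and 92.7 CPM and Het libraries 155, 139 and 143 CPM. In batch 3 WT libraries held 140 and 138 CPM and KO libraries 91.8 and 113 CPM. No KO library reached a WT library of its batch. Rpl7l1 fell 0.64 ± 0.08 on the log2 scale over batches (0.640-fold, adjusted p = 1.05e-05 by edgeR), and it was the only member that fell in batch 3 with all libraries (−0.43 ± 0.14, adjusted p = 0.0476). The batch 3 value was −0.59 (adjusted p = 0.000643) without the second KO library, and 4 of 12 other settings lost the call, among them leaving out either WT library of batch 3.

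Rpl22l1 stands in for Rpl22 in the large subunit and is known to be held down by Rpl22 itself. It was at 109, 121 and 110 CPM in WT, 79.0, 57.2 and 68.6 CPM in KO and 107, 116 and 105 CPM in Het libraries of batch 1. WT and KO overlapped in batch 3, at 159 and 129 CPM against 99.1 and 139 CPM. Over batches Rpl22l1 fell 0.55 ± 0.12 on the log2 scale (0.685-fold, adjusted p = 0.00161 by edgeR), with −0.27 ± 0.19 in batch 3 (adjusted p = 0.302; −0.53 and adjusted p = 0.0116 without the second KO library).

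Of the original copies of these pairs, Rpl22 and Rps27 rose and Rpl7 did not pass over batches with all libraries. Rpl22 RNA was at 409, 408 and 395 CPM in WT, 541, 466 and 531 CPM in KO and 388, 396 and 396 CPM in Het libraries of batch 1, and at 338 and 334 CPM in WT and 409 and 499 CPM in KO libraries of batch 3. KO lay above WT in each batch without overlap, and Rpl22 rose 0.38 ± 0.07 on the log2 scale over batches (1.30-fold, adjusted p = 2.66e-04 by edgeR). Rps27 was at 350, 347 and 376 CPM in WT and 423, 449 and 435 CPM in KO libraries of batch 1, and at 263 and 263 CPM and 307 and 421 CPM in batch 3. It rose 0.36 ± 0.08 (1.28-fold, adjusted p = 0.0016 by edgeR), a call lost in 1 of 21 other settings. Rpl7 was at 1110, 1123 and 1133 CPM in WT and 1061, 1027 and 1068 CPM in KO libraries of batch 1, without overlap, and at 991 and 930 CPM and 813 and 1050 CPM in batch 3, with overlap. It had −0.07 ± 0.07 over batches (adjusted p = 0.396) and was lower in batch 1 (−0.13, adjusted p = 0.0388), a call that 9 of 18 other settings lost. Without the second KO library of batch 3, Rpl7 was lower in KO, by a smaller amount than Rpl7l1 (−0.17, adjusted p = 0.00846, beside −0.76, adjusted p = 2.05e-07, by edgeR). Rpl3, near the peptidyl transferase centre, and Rpl10, which joins the large subunit last, have copies that were not measured here (Rpl3l and Rpl10l). Rpl3 had −0.22 ± 0.09 (adjusted p = 0.0471), a call that 15 of 21 other settings lost, and Rpl10 −0.11 ± 0.07 (adjusted p = 0.203; −0.21 and adjusted p = 0.00225 without that library).

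**Figure D3:**
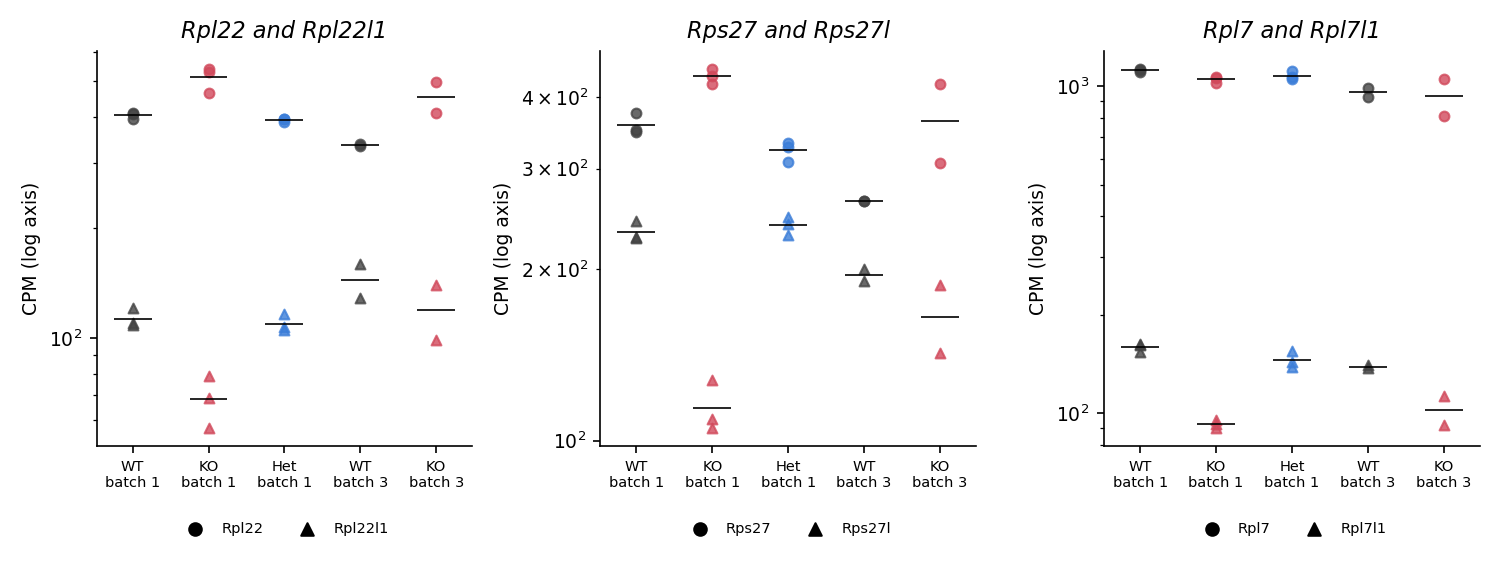
CPM per library, on a log axis, of 3 original ribosomal protein genes (circles) and their divergent copies (triangles) in the 5 groups; horizontal lines are group means. In batch 1 the KO triangles lie below the WT and Het triangles in each pair, while the KO circles of Rpl22 and Rps27 lie above the WT circles.

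Fragment counts do not compare levels between genes. FPKM (in which fragments are also divided by the length of the transcript) is meant to, but depends on the length assigned to each locus. In WT libraries of batch 1 Rps15 and Rps15a averaged 416 and 425 CPM but 11970 and 70.7 FPKM, with annotated lengths of 522 and 5134 bases. The order by FPKM below is therefore that of the deposited values and was not checked. In WT libraries of batch 1 Rps27 averaged 2605 FPKM and Rps27l 722, Rpl22 averaged 193 and Rpl22l1 385, and Rpl7 averaged 1527 and Rpl7l1 61.2. By FPKM Rps27l and Rpl7l1 were thus listed below their originals, and Rpl22l1 above Rpl22. The highest mean FPKM over WT libraries of batch 1 belonged to Rps15 (11970 ± 980, SD, n = 3), a protein of the small subunit's head, followed by Rpl41, the shortest ribosomal protein (4708 ± 716), Rpl38 (3800) and the stalk protein Rplp1 (3735 ± 451). In batch 3 Rplp1 came first (2682), followed by Rps12 (2066) and Rpl41 (1985), and Rps15 was at 1467. Rps15 fragments were at 403, 415 and 431 CPM in the WT libraries of batch 1 and at 428 and 401 CPM in those of batch 3, so its fragments were alike in both batches while its FPKM was not. None of the 5 genes with the highest FPKM passed the test over batches: Rps15 had 0.18 (adjusted p = 0.114), Rpl41 0.29 (0.118), Rplp1 0.21 (0.168), Rps12 0.03 (0.867) and Rpl38 0.18 (0.155), all by edgeR's quasi-likelihood test. Rps12 alone of the 5 passed without the second KO library of batch 3 (−0.19, adjusted p = 0.0147). The lowest FPKM among measured members in WT of batch 1 were those of Rps4l (17.3 FPKM), Rpl7l1 and Rps15a (70.7 FPKM, at the 425 CPM given above).

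Of the 33 small subunit genes, 8 rose and 5 fell over batches, with a median log2 fold change of 0.05, and 5 rose and 14 fell without the second KO library of batch 3. The largest falls after the divergent copies were in Rps2, at the mRNA entry channel, and in Rpsa, which also serves as a laminin receptor precursor. Rps2 stood at 1604, 1365 and 1351 CPM in WT, 1041, 865 and 879 CPM in KO and 1317, 1259 and 1137 CPM in Het libraries of batch 1. WT libraries of batch 3 held 1324 and 1340 CPM and KO libraries 973 and 1507 CPM, 1 below and 1 above WT. Rps2 fell 0.42 ± 0.13 on the log2 scale over batches (0.747-fold, adjusted p = 0.0134 by edgeR), with −0.67 in batch 1. The value in batch 3 was −0.10 (adjusted p = 0.765) with all libraries and −0.44 (adjusted p = 0.00569) without the second KO library. Rpsa was at 1541, 1490 and 1554 CPM in WT and 1199, 925 and 1014 CPM in KO libraries of batch 1, and at 1375 and 1397 CPM and 1108 and 1621 CPM in batch 3. It had −0.34 ± 0.13 over batches (adjusted p = 0.0309), a call lost in 5 of 21 other settings.

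The small subunit also held the 2 largest rises among called members, in Rps4l and Rps21. Rps21, which binds beside Rpsa, was at 383, 377 and 369 CPM in WT, 549, 524 and 528 CPM in KO and 365, 337 and 341 CPM in Het libraries of batch 1. Batch 3 gave 221 and 204 CPM in WT and 293 and 421 CPM in KO. By CPM the groups did not overlap in either batch. Rps21 rose 0.60 ± 0.09 on the log2 scale over batches (1.52-fold, adjusted p = 6.45e-05 by edgeR), with 0.47 in batch 1. The edgeR value of Rps21 in batch 3 was 0.75 ± 0.18 (adjusted p = 0.0172), or 0.47 without the second KO library. By FPKM the groups of batch 1 overlapped, at 2650 to 3392 in WT and 3253 to 3501 in KO. With limma on FPKM the call of Rps21 was lost over batches (adjusted p = 0.069) and in batch 1 (adjusted p = 0.211). Rps29, a zinc-binding protein of the subunit's head, was at 365, 402 and 419 CPM in WT and 522, 499 and 472 CPM in KO of batch 1, and at 286 and 249 CPM and 328 and 467 CPM in batch 3. It rose 0.43 ± 0.09 (1.35-fold, adjusted p = 0.00136 by edgeR), a call also lost with limma on FPKM (adjusted p = 0.322). Rps4l rests on 81 to 407 fragments per library at a locus of a single exon that resembles Rps4x. It was at 7.41, 6.46 and 8.84 CPM in WT and 7.01, 14.3 and 9.03 CPM in KO of batch 1, which overlap, and at 5.29 and 13.03 CPM and 16.6 and 24.4 CPM in batch 3. Its value of 0.72 ± 0.27 (adjusted p = 0.0292) was lost in 6 of 21 other settings, and in batch 3 the call of 1.17 (adjusted p = 0.0495) was lost without the second KO library (0.88, adjusted p = 0.433). Whether reads were shared with Rps4x was not tested.

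Among 13 proteins of the mRNA channel and head of the small subunit, 2 rose (Rps28 and Rps29) and 3 fell (Rps2, Rps18 and Rps19), with a median of 0.00 (2 fell with fragments scaled to library size alone). Rps25, which internal ribosome entry depends on, did not pass over batches (−0.14, adjusted p = 0.298), but was lower without the second KO library of batch 3 (−0.30, adjusted p = 0.00171). The test of a difference between batches gave 0.52 for Rps25 (adjusted p = 0.049), a call lost in 11 of 19 other settings, with 0.27 (adjusted p = 0.182) without that library. WT libraries held 540, 547 and 548 CPM in batch 1 and 451 and 450 CPM in batch 3, and KO libraries 480, 389 and 418 CPM and 424 and 592 CPM. KO libraries lay below WT in batch 1 and on both sides of WT in batch 3. Rps27a, made as a fusion with ubiquitin, had 0.07 (adjusted p = 0.511).

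Of the 48 measured large subunit genes, 7 rose and 6 fell over batches, with a median of −0.02 (0.02 with fragments scaled to library size alone), and 4 rose and 24 fell without the second KO library of batch 3. Of 9 proteins at the exit tunnel, through which the new chain leaves, Rpl22, Rpl26, Rpl31 and Rpl39 rose and Rpl4 fell. The median of the 9 was 0.09 (3 rose and 2 fell without that library, median −0.08). Of all genes tested 32.8% were higher and 30.8% lower, and so small a group was not tested against them. Rpl39, which lines the tunnel, was at 366, 403 and 379 CPM in WT, 526, 493 and 534 CPM in KO and 369, 396 and 372 CPM in Het libraries of batch 1. Batch 3 gave 294 and 271 CPM in WT and 365 and 511 CPM in KO, again without overlap. Rpl39 rose 0.51 ± 0.09 on the log2 scale over batches (1.43-fold, adjusted p = 1.75e-04 by edgeR) and 0.64 in batch 3 (adjusted p = 0.0308; 0.38 and adjusted p = 0.00878 without the second KO library). The locus of Rpl39 in batch 1 also holds Snora69. Rpl37a, a zinc-binding protein, was at 457, 488 and 481 CPM in WT and 600, 568 and 564 CPM in KO of batch 1, and at 297 and 243 CPM and 310 and 556 CPM in batch 3. It rose 0.44 ± 0.13 (1.36-fold, adjusted p = 0.0111), and 2 of 21 other settings lost the call.

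The stalk proteins, which recruit elongation factors, gave no call over batches by edgeR, also at an unadjusted p below 0.05. Rplp0 had 0.05 (adjusted p = 0.725), Rplp1 0.21, Rplp2 0.02 (0.875) and Rpl12 −0.23 (0.104), the last with −0.43 in batch 1 (adjusted p = 3.46e-04). Of the 5S particle, Rpl5 had −0.04 (adjusted p = 0.687) and Rpl11 −0.10 (0.369), with −0.26 for Rpl11 in batch 1 (adjusted p = 0.0029). Without the second KO library of batch 3, Rpl12 (−0.41, adjusted p = 8.29e-05), Rpl5 (−0.14, adjusted p = 0.0447) and Rpl11 (−0.25, adjusted p = 0.00137) passed as lower over batches. These are edgeR's values with Benjamini-Hochberg adjustment. Rpl5 has the status FAIL in 3 libraries of batch 1, which was kept.

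In batch 1 alone 10 members were higher and 37 lower in KO cells than in WT, where 34.2% of all 13672 genes tested were higher and 35% were lower. The share that fell, 37 of 81, stood above that of all genes and the share that rose below it. The median was −0.12, beside 0.00 over all genes. KO libraries lay wholly above WT for 15 members (18.5%, beside 38.1% of all genes) and wholly below for 37 (45.7%, beside 35.4%). With fragments scaled to library size alone, 19 were higher and 31 lower. Against Het libraries, 21 members were higher and 26 lower in KO, where 33.8% and 34.2% of all genes were. With library size alone these were 28 and 18. The comparisons with WT and with Het share the KO libraries.

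In batch 3 alone 4 members rose (Rpl39, Rps4l, Rps21 and Rps29) and Rpl7l1 fell, where 17.3% of 12835 genes tested were higher and 14.4% lower. Without the second KO library 4 were higher (Rpl22, Rpl39, Rps21 and Rps29) and 15 lower, where 22.2% and 20.3% of all genes were, and the median passed from 0.18 to −0.09. Without the first KO library instead, 59 were higher and 1 lower, where 22.5% and 20.3% of all genes were, and the median was 0.43. Leaving out a WT library lost the calls of Rps21 and Rps4l (1 of the 2 WT libraries each) and of Rpl39 and Rps29 (either). In both fits that leave out a KO library the lone KO library is assumed to vary like the WT libraries. Libraries of KO lay above WT in both batches for 12 of 81 members (14.8%, beside 24.5% of all genes) and below WT in both for Rpl7l1 and Rps27l (2.47%, beside 23.3%). With the second KO library left out these counts were 12 (beside 30.4% of all genes) and 37 (45.7%, beside 29.5%). The 12, in either case, were Rpl22, Rpl26, Rpl31, Rpl36a, Rpl37, Rpl37a, Rpl39, Rps15a, Rps21, Rps24, Rps27 and Rps29.

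The difference of the KO effect between batches was tested as an interaction. It was positive (batch 3 above batch 1) for all 81 members, with a median of 0.29 beside 0.01 over all genes, and passed for 2, where 10.8% of all 13769 genes tested passed upward and 8.18% downward. Those were Rps27l (0.78 ± 0.15, adjusted p = 0.00582 by edgeR) and Rps25 (0.52 ± 0.17, adjusted p = 0.049). Without the second KO library of batch 3 the median was 0.01 and Rps27l alone passed (0.58, adjusted p = 0.0181), where 4.6% of all genes passed upward and 3.64% downward. Without the first KO library instead, the median was 0.54. A positive median with all libraries was not particular to these genes. It was 0.35 for mitochondrial ribosomal proteins (68 of 71 positive), 0.53 for ribosome biogenesis factors and 0.25 for initiation factors, but −0.09 for snoRNA host genes. Other genes in the length bands of the shortest, middle and longest members, described below, had 0.36, 0.35 and 0.05, beside 0.29 for members of each band.

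Het cells, with a single copy of Mettl14, gave no call. None of the 81 members passed against WT by edgeR, DESeq2 or limma, where 0.0146% of all genes (2 of 13672) passed by edgeR. At an unadjusted p below 0.05, 28 members were lower and none higher in Het, or 34.6% of the members beside 8.56% of all genes tested. Fold changes were small: the median was −0.11, beside −0.00 over all genes, and 76 of 81 were negative. All 3 Het libraries, at −0.05, −0.11 and −0.14, lay below the WT libraries, which ranged from −0.04 to 0.04, each WT library set against the other WT libraries. Rps2, Rplp1 and Rpl41, for example, had −0.22, −0.23 and −0.21, each with an adjusted p of 0.549 or more. The comparison shares its WT libraries with that of KO in batch 1.

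Shorter members had the higher values in the comparisons of KO with WT, and the lower ones in Het, where all genes tested had a trend of the same sign. Over batches Spearman's rho between spliced length and log2 fold change was −0.286 over the 81 members and −0.357 over 77 without the divergent copies, beside 0.049 over 13361 genes tested and 0.007 over the 3401 of at most 2000 bases. Over the 81 members rho was −0.21 in batch 1, −0.349 in batch 3 and 0.226 for Het against WT. Over all genes tested these were 0.096, −0.061 and 0.174, and over those of at most 2000 bases 0.047, −0.088 and 0.128. Of single libraries, set against the WT libraries of their batch, the second KO library of batch 3 had the strongest trend (−0.414), the other KO libraries had −0.143 to −0.291, Het libraries 0.153 to 0.28 and WT libraries −0.123 to 0.189. These are correlations across genes, which share libraries and are not independent. The 28 members of 327 to 575 bases had a median of 0.14 with 7 called higher and 3 lower. The 26 of 582 to 867 bases had −0.09 (3 and 3), and the 27 of 875 to 5134 bases had −0.02 (5 and 5). Other genes in these length bands, the first without a lower bound, had medians of −0.09, 0.03 and 0.00. For Het against WT the first band had a median of −0.131 in members and −0.139 in other genes. Rps21 (391 bases), Rpl39 (394), Rps29 (390) and Rps27 (575, its upper bound) are in the first band. By contrast, Rpl22 (2357) and Rps15a (5134) rose and Rps27l (464) and Rpl22l1 (477) fell.

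Taken over batches, genes that build and serve the ribosome had larger median changes than its protein subunits, a difference given without a test. It was not plain in batch 3 with all libraries. There the medians were −0.185 for ribosome biogenesis factors, −0.036 for the RNA polymerase I machinery and −0.237 for initiation factors, beside 0.176 for the members. Over batches 32.8% of all genes tested were higher and 30.8% lower, and no list was tested against these shares. Of 58 ribosome biogenesis factors, 3 rose and 38 fell over batches, with a median of −0.51, and 46 fell without the second KO library of batch 3 (median −0.64). Nop58 and Nop56, core proteins of the box C/D particles that guide methylation of ribosomal RNA, had −1.19 ± 0.14 (adjusted p = 8.22e-06 by edgeR) and −1.09, and Wdr12, which processes the large subunit RNA, had −1.17 ± 0.10 (adjusted p = 7.01e-07). Nop58 was at 162, 148 and 157 CPM in WT and 58.5, 54.7 and 51.0 CPM in KO libraries of batch 1. Imp3 (1.18) and Rrs1 (0.59) were among the 3 that rose. In the RNA polymerase I machinery 3 of 16 rose and 9 fell, with a median of −0.30 and a lowest value of −2.43. The catalytic subunit Polr1a had −1.10 ± 0.14, while Polr1d rose (0.67). Of 32 initiation factors 2 rose and 24 fell, with a median of −0.43 (27 fell without that library, median −0.55); Eif5a had −1.09 and Eif4a1 −0.95, and Eif3f rose by 0.32.

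Among 17 elongation factors and other TOP mRNAs, whose mRNAs share the pyrimidine start of the ribosomal protein genes, 2 rose and 8 fell, with a median of −0.14. Both rises were elongation factors, Eef1a1 (0.33 ± 0.09, adjusted p = 0.00696 by edgeR) and Eef2 (0.33), while the nucleolar protein Npm1 (−0.84) and the intermediate filament Vim (−1.35), also a progenitor marker, fell. The 71 mitochondrial ribosomal proteins, which belong to the ribosome inside mitochondria, moved both ways, with 19 higher and 22 lower and a median of −0.03 (16 and 32, and −0.17, without the second KO library of batch 3; 0.01 with fragments scaled to library size alone). Of 7 snoRNA host genes of the TOP class 1 rose and 1 fell. Of 23 mTOR and Myc regulators of ribosome genes 10 rose and 7 fell, where 32.8% of all genes tested were higher and 30.8% lower. Mycn rose by 0.94 ± 0.20 (5.14 to 7.04 CPM in WT and 13.3 to 16.7 CPM in KO of batch 1), and Mlst8, a subunit of both mTOR complexes, had −0.88. Of 11 genes of the p53 response 8 fell, among them Cdkn1a (−1.23 ± 0.11) and Ccng1 (−0.93), beside the fall of Rps27l given above.

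**Figure D4:**
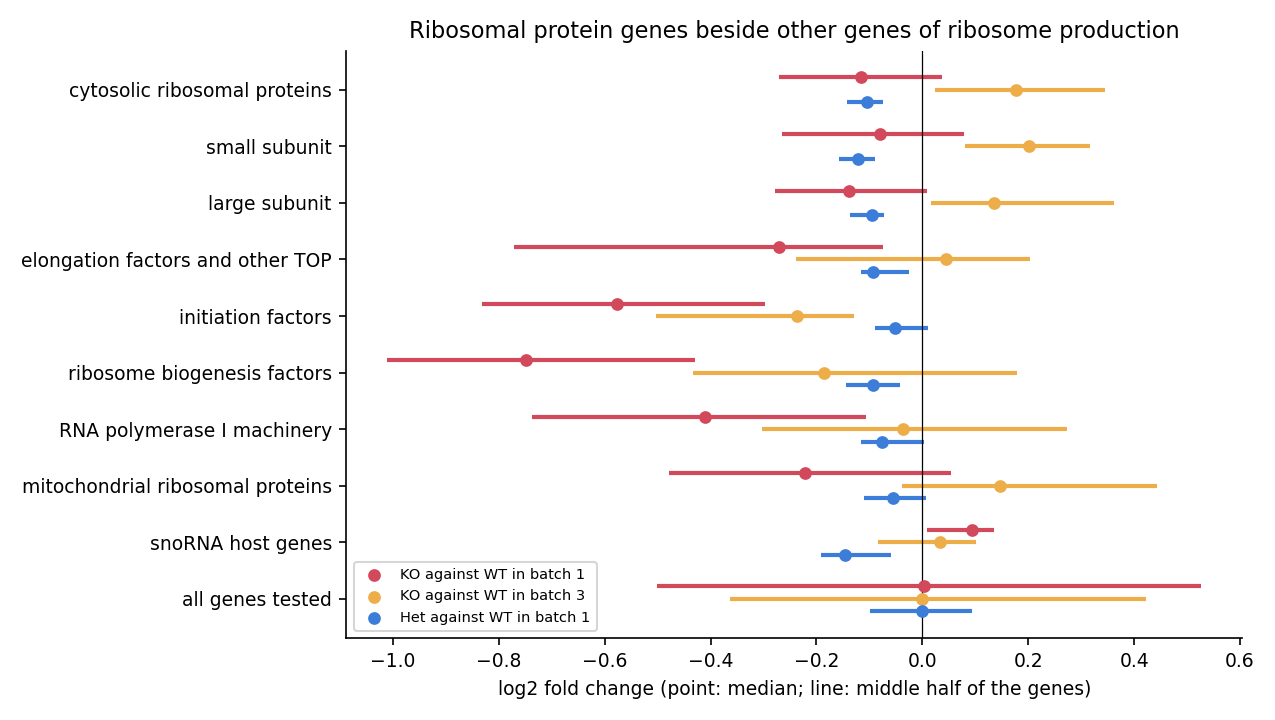
Median log2 fold change (point) and interquartile range (line) of the ribosomal protein genes, their subunits, 6 other lists and all genes tested, for KO against WT in batch 1 (red), KO against WT in batch 3 (orange) and Het against WT in batch 1 (blue), with all libraries. The ribosomal protein genes have medians of −0.12, 0.18 and −0.11. Ribosome biogenesis factors lie at −0.75 in batch 1 and −0.185 in batch 3, and initiation factors at −0.58 and −0.237.

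m6A peaks were sparse on these transcripts in WT cells. The 4 deposited lists combine 2 immunoprecipitates with 2 inputs, so they are not replicates, and each peak's fold over input and −log10 q are the authors'. Peaks of all 4 lists touched an exon of 3 of the 81 members (3.70%), beside 42.2% of all 13514 genes tested. A peak in any list touched 23 (28.4%, beside 66.2%), and single lists gave 9, 9, 11 and 16. Other short and abundant mRNAs had shares of the same order: of 91 other genes both at or above the 10th percentile of the members' WT FPKM and at or below the 90th percentile of their length, 2.20% had peaks in all 4 lists and 33.0% in any. The 3 members were Rpl38, which translation of Hox mRNAs in the embryo depends on, Rpl24, which bridges the subunits, and Rps7, which acts in early assembly of the small subunit. Their peaks lay in mm10 at chr11:114668640-114668998 (Rpl38, exons 2 and 3), chr16:55966440-55966654 (Rpl24, exon 2) and chr12:28635449-28635644 (Rps7, exons 2 and 3), with folds of 2.59 to 2.95 under the lists' medians of 4.02 to 4.22. No member had a peak with at least 0.5 of its length in exons in all 4 lists, and none reached a −log10 q of 5 in all 4. In a single list Rpl7l1 (exon 2, fold 4.34, −log10 q 6.56) and Rpl8 (exon 6, fold 2.63, −log10 q 5.18) did, or 2.47% of members beside 30.6% of genes. Of the 3 members with peaks in every list, Rpl24 fell in KO cells (−0.17, adjusted p = 0.0432 by edgeR) and Rpl38 and Rps7 (0.12, adjusted p = 0.146) did not pass.

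H3K27ac peaks stood near the start of all measured members in both genotypes at the wider of 2 windows. Within 250 bases of a start they stood at 80 of the 81 in each line, beside 85.4% to 88.7% of genes tested. An H3K27ac peak, a mark of active promoters and enhancers, lay within 1000 bases of the start of all 81 measured members in each of the 4 lines, beside 87.1% to 90.5% of 13361 genes tested, and at none of the 3 that were not measured. The median fold over input of the strongest peak was 9.19 in WT 532, 8.995 in WT 541, 7.74 in KO 530 and 9.91 in KO 534, so the WT lines lay between the KO lines. Peaks had a median width of 1769 and 1746 bases in the WT lines and 1507 and 1543 bases in the KO lines. Rps27l had folds of 17.4 and 10.2 in the WT lines and 9.18 and 12.2 in the KO lines, and Rpl22l1 17.9 and 12.3 against 11.1 and 9.79. For Rpl7l1 the folds were 8.56 and 6.71 against 5.63 and 6.98, for Rps21 6.45 and 7.19 against 5.94 and 7.43, and for Rpl22 6.94 and 6.38 against 5.30 and 6.44. Of these 5 genes only Rpl22l1 had both KO lines below both WT lines. Folds were called line by line and have no test, and the depth behind them is unknown. H3K27me3, a mark of repressed chromatin, had a peak at 2 to 4 of the 84 genes per line, among them Rpl26 in all 4 lines, beside 12.4% to 16.04% of all genes tested.

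**Figure D5:**
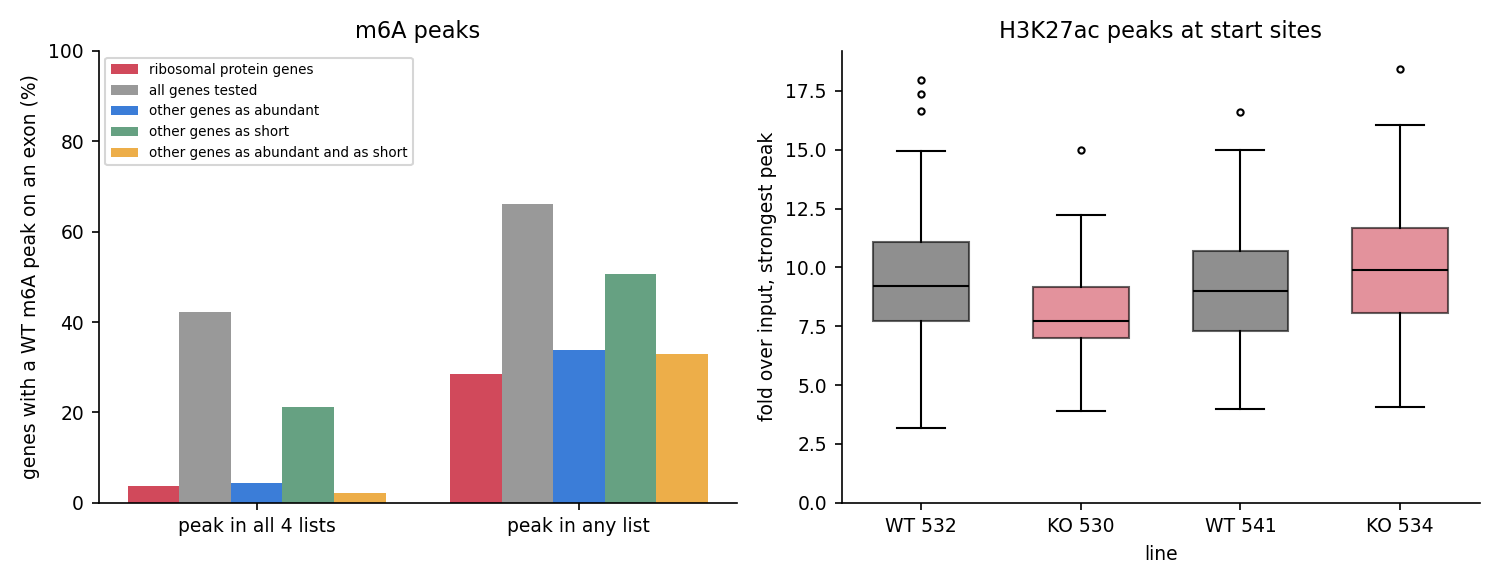
Left, percentage of genes with a WT m6A peak on an exon in all 4 lists or in any list, for the 81 ribosomal protein genes, all genes tested, and other genes as abundant, as short, or both. Right, fold over input of the strongest H3K27ac peak within 1000 bases of the start of the 81 genes, by line (line, median; box, interquartile range; whiskers, 1.5 times the box). Ribosomal protein genes stand at 3.70% and 28.4% beside 42.2% and 66.2% of all genes, and median H3K27ac folds lie between 7.74 and 9.91.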

How the data were processed

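Members and gene lists were chosen with earlier results of these data known. Per the file headers, the deposited RNA tables give raw fragment numbers per locus (expected counts; 5.31% and 2.31% of values not whole at a tolerance of 1e-9) and FPKM, which the authors computed per locus of their merged assemblies. The submitters' processing notes name mm10, MACS2, Bowtie2 2.3.1, Cuffdiff, Cufflinks, TopHat and TopHat2 2.1.0. How reads of near-identical copies and pseudogenes were assigned is not given in the sources used here. Per the file format, the deposited peak lists hold for each peak its −log10 q, its −log10 p, a score of 10 times the −log10 q, and the ratio to input (fold). The batch 2 table is identical to that of batch 1, so its 6 libraries were not analysed here.

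Fragments were rounded, summed per gene key and tested with edgeR 4.0.16 (R 4.3.3; TMM factors 0.969 to 1.04, its default filter, robust quasi-likelihood test, two-sided, Benjamini-Hochberg over all genes tested, called at 0.05), each batch alone and over batches with batch as a term. The SE is the log2 fold change over the square root of F. CPM use the TMM factors. The test was checked on simulated counts. Loci without a known gene (8847 of 32572 and 2716 of 26458) were left out, and loci joining several genes (601 and 445) give them a shared value. Alternatives were other scalings, no filter, DESeq2 1.42.0, limma 3.58.1 on log2(FPKM + 1), locus filters and leaving out each library. A peak counted at 1 shared base with an exon, or within 1000 bases of a start. Per-library values, for some genes without the Het libraries, are given for the 5 largest rises and falls among called members and for members whose effect differed between batches. They are also given for Rpl22, Rps27 and Rpl7 and their divergent copies. Ranges or tests stand for the 5 highest FPKM and the role groups. Leaving out the second KO library of batch 3 was added for lists and roles after its values were seen.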

Additional observations from a re-analysis of the deposited data

Results flagged for a closer look

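The KO effect differed between batches for 2 members by the interaction term in edgeR's quasi-likelihood test. For Rps27l the effect in batch 3 was 0.78 above that in batch 1 on the log2 scale (adjusted p = 0.00582). The difference passed in all 19 alternatives, with adjusted p from 2.95e-04 to 0.0322. For Rps25 the difference was 0.52 (adjusted p = 0.049). It was lost in 11 of 19 alternatives, with adjusted p up to 0.182.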

How the results depend on the processing

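No paired analysis was possible because the RNA tables number libraries within a group without tying them to lines, and the peak lists give no test. Leaving out 1 library at a time gave 7 to 18 higher and 5 to 38 lower members over batches (median −0.114 to 0.0594), 7 to 10 and 32 to 40 in batch 1 (−0.145 to −0.0798), and 14 to 22 and 17 to 27 for KO against Het (−0.0478 to 0.0213). In batch 3 it gave 1 to 59 and 0 to 15 (−0.0942 to 0.426), for the difference between batches 1 to 70 higher (0.0134 to 0.536), and for Het a median of −0.138 to −0.0778. The KO over WT ratio of the members' share ranged from 0.933 to 0.971 in batch 1 and from 0.944 to 1.34 in batch 3. With limma on FPKM, 3 were higher over batches, 2 in batch 1 (median −0.266), 4 higher and 43 lower for KO against Het (−0.223), and 1 and 0 in batch 3, while the Het median was −0.0564 and the share ratio in batch 1 was 1.02 by FPKM. With library size alone, 19 were higher in batch 1 (median −0.0396), the KO against Het median was 0.0376, and none was lower in batch 3. DESeq2 called 10 higher in batch 3. The count of m6A members was 23 in any list and 0 with stricter overlap or q. The sign of a median or the side of 1 of a ratio turned in batch 3 without the second KO library (0.176 to −0.0942, and 1.14 to 0.944), over batches without it (0.022 to −0.114) and with limma on FPKM (−0.105), for KO against Het with library size alone and on leaving out some libraries, and for the share in batch 1 by FPKM. The split over batches passed from 15 higher and 11 lower to 9 and 38 without that library. The falls of Rps27l, Rpl7l1, Rpl22l1 and Rps2 and the rises of Rpl22 and Rpl39 over batches held in every alternative run for them. Those of Rps21, Rps27 and Rps29 were lost with limma on FPKM alone. The cause of these changes was not tested. Read depth of the peak lists is unknown.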
